A study of Mus musculus with 2 samples.

Results

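The fibroblast growth factor (FGF) system was examined in isolated glomeruli, the capillary filters of the kidney, through 10 genes: the ligands Fgf1, Fgf2, Fgf7 and Fgf10, the receptors Fgfr1, Fgfr2, Fgfr3 and Fgfr4, the secreted FGF carrier Fgfbp1 and the co-receptor Kl (Klotho). Every probe set whose platform symbol was exactly one of these was taken, which gave 23 of the 45101 probe sets of the array. A probe set is a group of short probes for 1 transcript. The glomeruli came from male mice of the inbred strain KK/Ta, which develops obesity and type 2 diabetes, at 20 weeks of age. One group had been fed a high-fat diet (HFD) and the other a normal fat diet (Chow), and each diet is represented by 1 array. The design text names 3 mice without saying how they are spread over the arrays or whether their RNA was pooled. The sources used here give neither the length nor the composition of the diets.

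FGFs are secreted proteins that bind heparan sulphate in the matrix and signal through receptor tyrosine kinases on neighbouring cells. FGFBP1 binds FGFs and releases them from that store. Endocrine FGF23 instead needs Klotho, which joins with an FGF receptor on kidney tubule cells and there lowers phosphate reabsorption and active vitamin D. In mature kidney Klotho is known mainly as a gene of the distal tubule, which lies outside the glomerulus.

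In the HFD array Fgfbp1 transcript was 2.54-fold lower than in the Chow array, the only one of the 13 probe sets above the floor (defined below) on both arrays to differ by 2-fold or more. Fgfr4 was 1.59-fold lower and Kl 1.61-fold higher, each with the only probe set of the gene above the floor. Both brighter Fgf1 probe sets were higher (1.24-fold and 1.25-fold), every measured Fgfr1 and Fgfr3 probe set was lower by 1.03-fold to 1.27-fold, and Fgf2, Fgf7 and Fgf10 gave no signal above the floor on either array. A single array stands for each diet, so no difference has a replicate, a test or a standard error, and each describes the RNA hybridised here. The gene list was chosen with measured values of this contrast known: the members were selected on HFD minus Chow differences already seen, that of Fgfbp1 among them. All these differences are therefore given as a description.

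Values are deposited signals in linear intensity units. Differences are HFD minus Chow on the log2 scale after each array was centred on its median. The 50th percentile of each array, a signal of 42.3 for HFD and 44.9 for Chow, served as its floor. Signals under it were raised to it, so a probe set above the floor in 1 diet alone has a bound ("at least") and no measured difference. As a stand-in for replicate error, the scatter of differences among all probe sets of like signal is given (scaled median absolute deviation within 10 classes of equal size by signal). It ran from 0.37 log2 units among dim probe sets to 0.16 in the brightest class, and it holds technical noise and real differences together. Probes bind with different strength, so signals of different probe sets are not ranked against each other.

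The promoters of the 3 genes that differed by 1.5-fold or more are shown as the regulatory sequence of the genes with the largest differences. They are RefSeq sequences of assembly GRCm38.p6, from 250 bases before the annotated start to 30 bases after it, read 5′ to 3′ on the gene's strand. That of Fgfbp1 is chr5:43981770-43982049 on the minus strand, that of Fgfr4 chr13:55152568-55152847 on the plus strand and that of Kl chr5:150952357-150952636 on the plus strand. Capitals mark matches, on either strand, to the GC box bound by Sp1 (GGGCGG), the TATA box (TATAAA) or the CCAAT box (CCAAT).
Fgfbp1: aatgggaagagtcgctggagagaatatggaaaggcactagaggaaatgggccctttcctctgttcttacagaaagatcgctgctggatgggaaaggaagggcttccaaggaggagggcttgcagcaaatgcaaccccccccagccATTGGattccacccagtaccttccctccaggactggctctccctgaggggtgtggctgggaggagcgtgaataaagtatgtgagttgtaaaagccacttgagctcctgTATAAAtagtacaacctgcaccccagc
Fgfr4: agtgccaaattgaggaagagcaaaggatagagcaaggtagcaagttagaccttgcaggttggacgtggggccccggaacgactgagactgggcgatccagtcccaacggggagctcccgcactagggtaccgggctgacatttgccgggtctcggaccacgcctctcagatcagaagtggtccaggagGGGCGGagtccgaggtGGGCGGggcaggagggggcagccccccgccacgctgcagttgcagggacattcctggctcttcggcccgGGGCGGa
Kl: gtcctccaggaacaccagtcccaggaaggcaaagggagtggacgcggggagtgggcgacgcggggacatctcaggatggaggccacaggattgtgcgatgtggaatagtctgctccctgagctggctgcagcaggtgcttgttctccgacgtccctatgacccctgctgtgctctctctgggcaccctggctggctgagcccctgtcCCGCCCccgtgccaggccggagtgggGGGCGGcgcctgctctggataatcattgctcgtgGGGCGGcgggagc

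The Fgfbp1 window held 1 CCAAT box, starting at position -105 from the annotated start, and 1 TATA box, starting at base 4 of the annotated transcript, and no GC box. The Fgfr4 and Kl windows each held 3 GC boxes and neither of the other motifs. The share of G and C was 52.9% for Fgfbp1, 64.6% for Fgfr4 and 66.4% for Kl. Among 32851 promoters of this length, 34.7% held a GC box, 13.1% a TATA box and 36.1% a CCAAT box. The AP-1 motif (TGANTCA, in 7.46% of promoters) and the E-box CACGTG (6.79%) were also searched, and their letters were in none of these windows. A match is a run of letters, not a measured binding site, and the arrays measured nothing at these promoters.

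**Figure D1:**
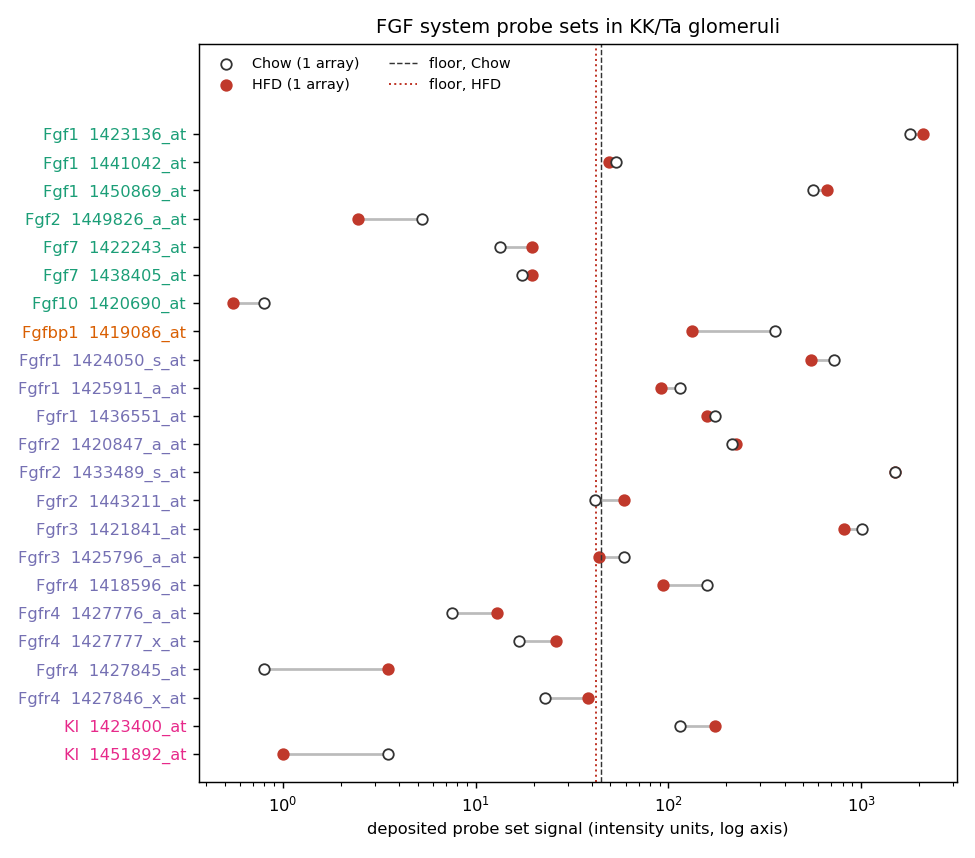
Deposited signal (intensity units, log axis) of each of the 23 probe sets on the HFD array (filled) and the Chow array (open), joined by a line, with the floor of each array as a vertical line; gene names are coloured by role. Fgfbp1 lies at 355 on the Chow array and 132 on the HFD array, both above the floor, while the probe sets of Fgf2, Fgf7 and Fgf10 and 4 of the 5 of Fgfr4 lie left of both floors.

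Of the 23 probe sets, 14 lay over the floor in 1 diet or both (13 of them in both), and 9 lay under it in both. The 14 covered 7 of the 10 genes. One of the 14 was at least 2-fold lower in HFD (0.295% of the 23419 probe sets above the floor were) and 0 were at least 2-fold higher (0.615%), with the 1 probe set above the floor with HFD alone counted at its bound. At 1.5-fold, 2 were lower (2.58% of all) and 1 was higher (3.66% of all). At 3-fold, 0 were lower (0.0299% of all) and 0 higher (0.0897% of all). By any amount, 8 were lower and 6 higher, where 43.4% of all probe sets above the floor were lower. Their median difference was -0.04 log2 units, against 0.038 over all probe sets above the floor.

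Among the ligands, Fgf1 carried signal. FGF1 is the ligand that can activate every FGF receptor. Its probe set 1423136_at read 2090 with HFD and 1793 with Chow, a difference of 0.31 log2 units with a scatter of 0.17 at that signal. The probe set 1450869_at read 663 (HFD) and 563 (Chow), a difference of 0.32 with a scatter of 0.20. Both were thus higher in HFD by more than the scatter and by nearly the same amount, 0.01 log2 units apart. In their signal classes 12.5% and 14.8% of probe sets differed by more, in either direction. The third probe set of the gene, 1441042_at, lay just above the floor, at 49.3 (HFD) and 53.6 (Chow), and differed by -0.04, well inside its scatter of 0.33.

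The other ligands were under the floor. Fgf2, a heparin-binding mitogen of endothelial and mesenchymal cells, read 2.45 with HFD and 5.27 with Chow. Fgf7, a mesenchymal ligand that acts on epithelium, read 19.5 (HFD) and 13.4 (Chow) with one probe set and 19.5 and 17.4 with the other. Fgf10, a relative of Fgf7 that signals to the same epithelial receptor form, read 0.553 and 0.797. Values under the floor have no order, so no direction is given for these genes, and their probe sets do not show that the transcripts were absent. Of 18 further FGF ligand genes, 15 were under the floor on both arrays and 3 were above it on 1 array only. Fgf9 read 64.5 (HFD) against 29.6 (Chow), a bound of at least 1.52-fold higher. Fgf4 read 62.0 against 33.8, at least 1.46-fold higher, and Fgf11, an intracellular member of the family, 31.6 against 60.2, at least 1.34-fold lower. The endocrine ligands Fgf15, Fgf21 and Fgf23, made mainly outside the kidney, were among those under the floor.

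Fgfbp1 showed the largest difference of the group. FGFBP1 is the secreted carrier that frees FGFs from heparan sulphate. Its only probe set, 1419086_at, read 132 with HFD and 355 with Chow, a difference of -1.35 log2 units with a scatter of 0.24 at that signal. When the 10824 genes with signal over the floor in both diets were ranked by difference, each by its brightest probe set, Fgfbp1 was number 3 from the lower end. The genes next to it were Brca1 (-2.31), a DNA repair gene, and Adra2c (-1.36), an adrenergic receptor, on one side, and Dnajc17 (-1.34) and Ttc39c (-1.23) on the other. No second probe set could be set beside this value. With the floor at the 70th percentile the HFD signal fell under it, and the difference became a bound of -0.82. Fgfbp3, a related FGF carrier, went the other way, at 78.7 (HFD) and 51.9 (Chow), a difference of 0.68 near the floor.

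**Figure D2:**
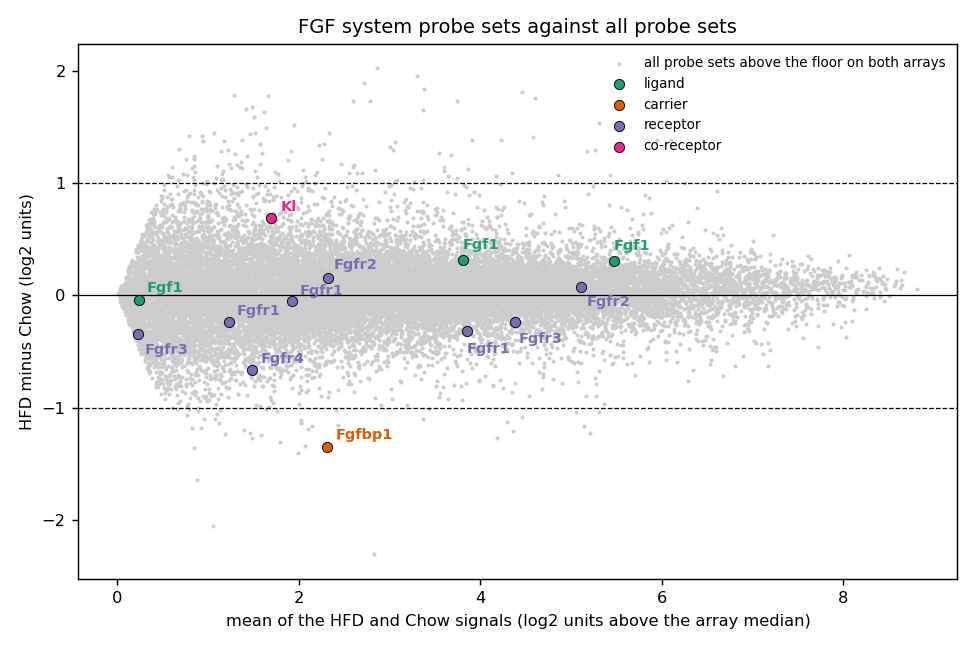
HFD minus Chow difference (log2 units) against the mean signal (log2 units above the array median) for all probe sets above the floor on both arrays (grey) and for the 13 FGF system probe sets among them (coloured by role); dashed lines mark 2-fold. Fgfbp1, at -1.35, is the only coloured point beyond a dashed line, and the Fgfr1, Fgfr2 and Fgfr3 points lie between -0.34 and 0.16.

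The receptors gave signal on both arrays, and none of their 8 probe sets above the floor on both differed by 2-fold. One more, of Fgfr2, was above it with HFD alone and has only a bound. Fgfr1, the receptor of mesenchymal cells and a partner of Klotho, was lower in HFD with each of its 3 probe sets. The probe set 1424050_s_at read 548 (HFD) and 725 (Chow), a difference of -0.32 with a scatter of 0.20. The others read 91.5 and 115 (-0.24, scatter 0.32) and 159 and 174 (-0.05, scatter 0.28). So the first lay beyond the scatter at its signal and the others inside it. In the signal class of the first, 14.6% of probe sets differed by more, in either direction. The ending _s_at marks probes that may match transcripts of more than 1 gene.

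Fgfr2, whose epithelial splice form is the receptor of FGF7 and FGF10, was nearly level. The probe set 1433489_s_at read 1500.0 with HFD and 1505 with Chow, a difference of 0.08 after centring that was 0 to 2 decimals without it. The probe set 1420847_a_at read 224 and 213, a difference of 0.16 with a scatter of 0.24. The dim 1443211_at read 58.7 (HFD) and 41.6 (Chow), the latter under the floor, a bound of at least 1.39-fold higher. Both measured differences of this gene were smaller than the scatter.

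Fgfr3, a receptor found on many epithelia, was lower in HFD with both of its probe sets. The probe set 1421841_at read 814 (HFD) and 1015 (Chow), a difference of -0.23 with a scatter of 0.19. The dim 1425796_a_at read 43.9 and 59.0, a difference of -0.34 with a scatter of 0.33. Each difference was thus slightly larger than the scatter of its signal class, and they were 0.11 log2 units apart. In those classes 24.4% and 30.9% of probe sets differed by more, in either direction.

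Fgfr4, a receptor that in kidney is known mainly from proximal tubule, had 5 probe sets, of which 1 was above the floor. That one, 1418596_at, read 93.7 with HFD and 158 with Chow, a difference of -0.67 with a scatter of 0.32. In its signal class 6.71% of probe sets differed by more, in either direction. The other 4 Fgfr4 probe sets were all under the floor. They read 12.9, 26.2, 3.5 and 38.3 for HFD and, in the same order, 7.58, 16.8, 0.801 and 22.9 for Chow. Each thus read higher with HFD, opposite to 1418596_at, although values under the floor have no order. The lower value for Fgfr4 therefore rests on 1 probe set at low signal.

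Kl stood at the other end of the group. Its probe set 1423400_at read 174 (HFD) and 115 (Chow), a difference of 0.69 with a scatter of 0.32. In that signal class 6.15% of probe sets differed by more, in either direction. The second Kl probe set, 1451892_at, read 1 and 3.53, under the floor on both arrays. In the same HFD array 12 of 13 detected markers of the distal nephron (loop, distal tubule and collecting system) were higher. Of these markers Scnn1b and Atp6v1b1 were above the floor with HFD alone and were counted at their bounds. Their median was 0.64 log2 units, and the summed signal of the list was 9408 (HFD) against 6596 (Chow). Of the 15 markers, Cldn16 and Scnn1g were under the floor on both arrays. Proximal tubule markers were higher for 13 of 14, with a median of 0.56 and a summed signal of 17500 against 12994, where 62.2% of all genes above the floor were higher. The difference of Kl was close to both medians, while that of Fgfr4 had the opposite sign. The part of tubule cells in either value was not tested. In whole glomerular RNA, fewer cells of a type and less RNA per cell cannot be told apart.

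Probe sets of the same gene give a partial check within these arrays. Over 13298 pairs of probe sets that share a gene, both above the floor on both arrays, their differences lay a median of 0.19 log2 units apart, and 0.53 apart at the 90th percentile. In 59.9% of the pairs both differences had the same sign, so probe sets of 1 gene often went opposite ways. The 8 such pairs of Fgf1, Fgfr1, Fgfr2 and Fgfr3 lay between 0.01 and 0.36 apart, with a median of 0.15. The widest gap was between the dim Fgf1 probe set and a brighter one. Fgfbp1, Fgfr4 and Kl, which had the largest differences, each had 1 probe set above the floor and so no such check. Such agreement bears on the measurement, not on how mice differ.

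**Figure D3:**
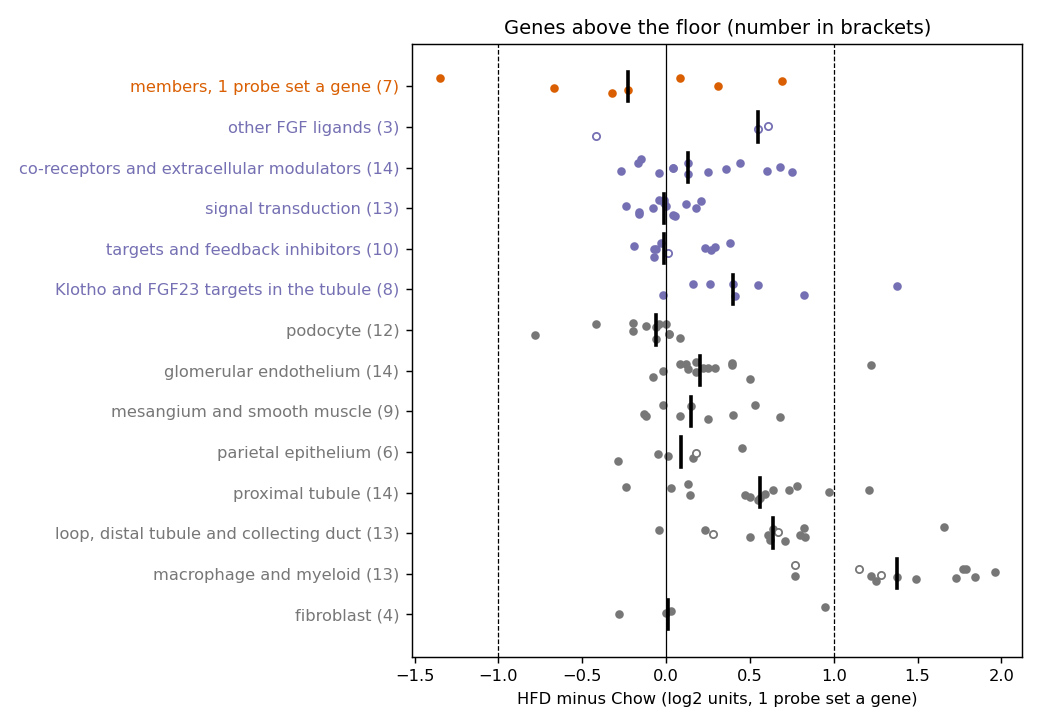
HFD minus Chow difference (log2 units) of genes above the floor, each by its brightest probe set, for the FGF genes (orange), the pathway lists (purple) and the cell type marker lists (grey); open points are bounds, thick bars are medians and dashed lines mark 2-fold. The FGF genes spread from -1.35 to 0.69, signal transduction genes stay between -0.24 and 0.21, and macrophage and tubule markers lie to the right.

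Other genes of the pathway were taken as lists, each gene by its brightest probe set. The median of all 11356 genes above the floor was 0.064, with 37.8% lower in HFD by any amount. Of them 0.722% were higher by 2-fold or more and 0.159% lower by 2-fold or more. Of 14 co-receptors, adhesion partners and heparan sulphate enzymes above the floor, 10 were higher and 4 lower, none by 2-fold, and the median was 0.13. Hs6st2, a heparan sulphate sulphotransferase, differed by 0.75 (73.1 in HFD and 45.9 in Chow). Fgfbp3 differed by 0.68, and Flrt3, a transmembrane FGF receptor partner, by 0.60 (128 and 89.2), all at low signals. A second Flrt3 probe set differed by 0.23 (104 and 94.4). The decoy receptor Fgfrl1 differed by 0.44 (535 and 417) and 0.16 with its second probe set. Klb, the co-receptor for FGF15 and FGF21, was under the floor on both arrays.

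Intracellular signalling genes differed little. Of 13 above the floor, 6 were higher and 7 lower, the median was -0.01, and all lay between -0.24 and 0.21. Cbl, the ubiquitin ligase that sends activated receptors to degradation, read 945 (HFD) and 1185 (Chow), a difference of -0.24, and -0.50 with its second probe set. The MAP kinase kinase Map2k1 differed by 0.21 and the adaptor Shc1 by 0.18, with -0.15 for a dimmer Shc1 probe set.

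Genes that FGF signalling induces and that restrain it did not move in 1 direction. Of 10 above the floor, 5 were higher and 5 lower, with a median of -0.01, and none of the 9 measured on both arrays differed by 2-fold. The other, Dusp5, read 42.7 (HFD) and 19.2 (Chow), the latter under the floor, and has only a bound of 0.01. Dusp6, the phosphatase that switches off ERK, read 772 (HFD) and 628 (Chow), a difference of 0.38. Dusp4 differed by 0.29 and the receptor tyrosine kinase inhibitor Spry2 by 0.27, with 0.44 for its second probe set. Spred1 differed by -0.19, and Spry4 by -0.07 in its brightest probe set, with 0.16 and 0.46 in dimmer ones. Etv4, a transcription factor induced by FGF, was under the floor on both arrays, and Etv5 differed by -0.07. The sign of this list's median changed with the processing.

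A further list was drawn up for FGF23 and Klotho action in the tubule. Of its 8 genes with signal, 7 were higher by any amount (62.2% of all genes above the floor were), and the median was 0.40. The list was not split by the direction in which FGF23 acts on each gene, so neither value gives a direction of that action. Only Cyp24a1 among the 8 was higher by 2-fold or more. Cyp24a1, the enzyme that inactivates vitamin D, read 1285 with HFD and 522 with Chow, 2.61-fold higher, and its second probe set was at least 0.65 log2 units higher. Calb1, the calcium-binding protein of distal tubule, was 1.77-fold higher (526 and 315), and the phosphate transporter Slc34a1 1.47-fold higher (1259 and 909). Cyp27b1, which activates vitamin D, was under the floor on both arrays, and Pth1r, the parathyroid hormone receptor, differed by -0.02. Calb1 and Slc34a1 also serve as tubule markers, whose lists had medians of 0.64 and 0.56. The part of tubule cells in these values was not tested.

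The labelled tissue was checked against its markers. All 12 podocyte markers measured and all 14 endothelial markers were above the floor on both arrays, with medians of -0.06 and 0.20. Of the podocyte markers 9 were lower and 3 higher, where 37.8% of all genes above the floor were lower. Of the endothelial markers 12 were higher and 2 lower. Of 11 mesangial and smooth muscle markers 9 were above it (median 0.15), of 7 parietal epithelial markers 6 (0.09) and of 8 fibroblast markers 4 (0.01). The parietal marker Cdh6 was above it with HFD alone and was counted at its bound. Macrophage and myeloid markers over the floor numbered 13, all higher (62.2% of all genes above the floor were). By 2-fold or more 11 were higher (0.722% of all genes). Of the 13, 10 were above the floor on both arrays, and Cd68, C1qa and C1qb were counted at their bounds. The median was 1.38 and the summed signal of the list 6043 (HFD) against 2402 (Chow). Itgam alone was under the floor on both arrays. Summed podocyte signal was 72091 against 80270. The part of these cells in the values of Fgf1, Fgfr1, Fgfr3 and Fgfbp1 was not tested.

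**Figure D4:**
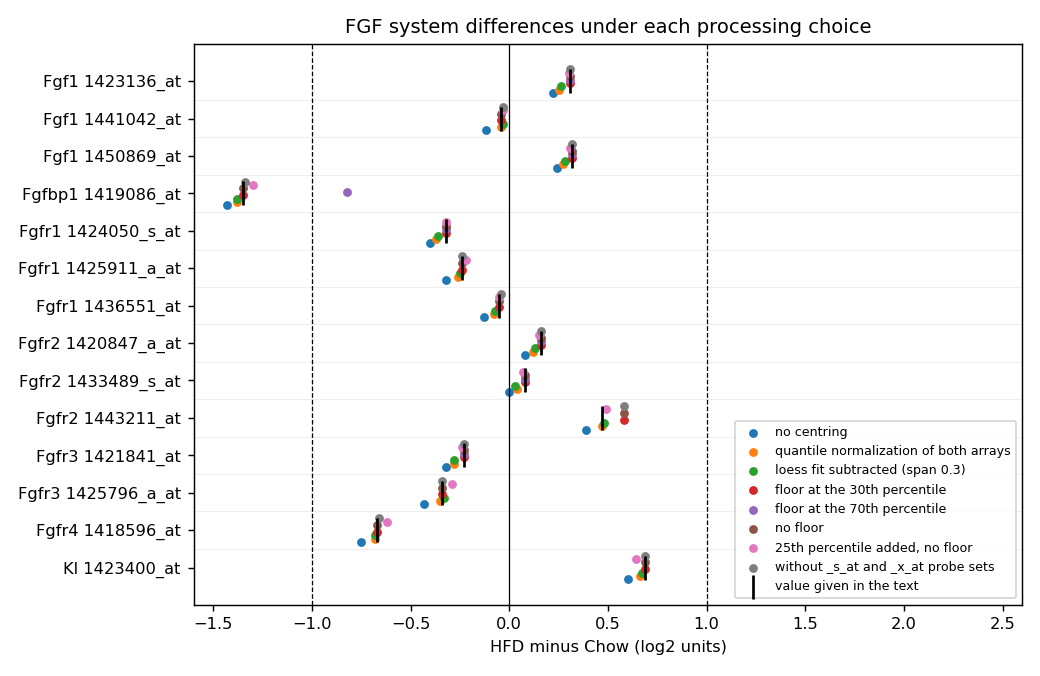
HFD minus Chow difference (log2 units) of each FGF system probe set above the floor, as given in the text (black bar) and under each of the other processing choices (coloured points); dashed lines mark 2-fold. Fgfbp1 stays left of -1 except for the bound of -0.82 with the floor at the 70th percentile. The probe sets 1418596_at of Fgfr4 and 1423400_at of Kl have no point there and keep their direction under the others. Other Fgfr4 probe sets, under the floor used in the text, are not drawn.

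The probe sets with the larger differences kept their direction under each processing choice that left them above the floor. Some of these choices could not have changed it. A lower floor or none leaves a difference measured above the floor on both arrays as it was. Leaving out centring moves every difference by only 0.083. All settings use the same 2 arrays. Fgfbp1 ranged from -1.43 to -0.82 over 8 other settings. For Fgfr4 the probe set above the floor used in the text ranged from -0.75 to -0.62 over 7 settings. That of Kl ranged from 0.60 to 0.69, also over 7 settings. With the floor at the 70th percentile both genes were under it on both arrays. With the floor at the 30th percentile further Fgfr4 probe sets rose above it, and these read higher with HFD. They included signals of 38.3 (HFD) against 22.9 (Chow) and of 26.2 against 16.8. The probe sets of Fgfr4 thus went opposite ways at that floor. The 2 brighter Fgf1 probe sets ranged from 0.22 to 0.31 and from 0.24 to 0.32.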

How the data were processed

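Total RNA was purified on Qiagen RNeasy columns, labelled with biotin by 2-cycle amplification and hybridised to Affymetrix Mouse Genome 430 2.0 arrays, per the labels' protocols. GeneSpring 7.3.1 is named in the design text. The authors deposited 1 linear intensity per probe set and array. The sources used here do not give how probes were summarised and arrays scaled, and the table used here has no detection calls. Control probe sets (64) were set aside. The other 45037 were put on a log2 scale and centred on the array median, which added 0.083 to every difference. Values under the 50th percentile were raised to it. Genes were named from the platform annotation of 2016, and all 10 members carry the same symbol in RefSeq. Analyses used Python 3.11.15, and the calculation was tested on simulated data. No test between the diets was possible with 1 array each, and array number limits the precision. Alternatives were no centring, quantile or loess normalization (span 0.3), other floors or none, and the 25th percentile added before the log2. Further ones were leaving out _s_at and _x_at probe sets, a gene's median in place of its brightest probe set, and thresholds of 1.5-fold and 3-fold. With no floor, and with the 25th percentile added, values were not raised. The 50th percentile still decided there which probe sets were counted. Text names every member, in each pathway list the genes past 2-fold or the 3 with the largest difference, and the genes 2 ranks either side of Fgfbp1. Other named genes were chosen with their values in view. The members and lists were chosen with earlier results of these data known. A planned comparison of the members' protein sequences was not made here.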

Additional observations from a re-analysis of the deposited data

How the results depend on the processing

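Fgfbp1 kept its direction in all 8 other settings, some of which could not have changed it. With the floor at the 70th percentile its difference was a bound of -0.82, and the number of FGF system probe sets at least 2-fold lower was 0. That number was 2 at a threshold of 1.5-fold, with 1 higher, and 0 at 3-fold. The median of the FGF system probe sets was close to 0 and had no stable sign: it was -0.12 without centring, 0.10 with the floor at the 30th percentile and 0.08 at the 70th, where 19 and 7 probe sets were above the floor in place of 14. The median of targets and feedback inhibitors was 0.10 with the floor at the 70th percentile and with no floor, and 0.09 with the 25th percentile added, without _s_at and _x_at probe sets, and with a gene's median in place of its brightest probe set. The median of other FGF ligands, which rests on 3 bounds, ran from 0.01 to 0.96, and at the 70th percentile none of these genes was above the floor. Signal near the floor limits Fgfr4, Kl, Fgfbp3 and the dim probe sets. No paired analysis was possible because each diet has 1 array.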
